A study of Arabidopsis thaliana with 12 samples.

Results

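Gene expression in rosette leaves of the Arabidopsis thaliana mutant fls1-3 was compared with that of the wild type Col-0. The comparison used the 3 arrays titled fls1-3 and the 3 titled Col-0, which are 6 of the 12 arrays of the series, and arrays were assigned by title alone. The other 6 arrays were 3 each of OE1 and OE2, a pair of lines that overexpress TaFLS, and they served to estimate the spread and as a second reference for fls1-3. All plants were 6 weeks old and had been grown in soil with 16 h of light, at 22 °C and 60% humidity. What kind of lesion fls1-3 carries, and which promoter drives TaFLS, are not given in the sources used here. The titles call the 3 arrays of a group biological replicates, but nothing says whether they came from separate plants or pools, so the p-values refer to the scatter among arrays, which may be technical.

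Flavonols are coloured or ultraviolet-absorbing phenolic compounds that plants make from phenylalanine by way of the phenylpropanoid and flavonoid pathways. Flavonol synthase turns dihydroflavonols into flavonols, at a branch point where dihydroflavonol reductase, DFR, draws the same substrates toward anthocyanins, and in Arabidopsis FLS1 encodes the main flavonol synthase. In leaves, flavonols are known as sunscreens, antioxidants and modulators of auxin transport, and they are stored as glycosides made by UDP-glycosyltransferases.

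The labels describe the fls1-3 arrays as coming from leaves with raised flavonol content, the same description as for OE2 and the opposite of that for OE1. A raised content in a line named for a flavonol synthase mutation, and a lowered one in an overexpression line, run against what the genotypes by themselves would lead one to look for. Whether the descriptions were exchanged is in doubt, and arrays were grouped by title without them. The annotation at hand gives FLS1 no probe set of its own. Its transcript level was therefore not analysed, and the mutant label has no check of that kind. Values are log2 MAS5 signals, a measure of brightness that the authors scaled on each array, with a floor of 0. Array medians were 7.09, 7.25 and 7.42 in Col-0 and 7.51, 7.26 and 7.12 in fls1-3. Arrays correlated across probe sets at 0.908 to 0.924 within Col-0, 0.907 to 0.930 within fls1-3 and 0.898 to 0.932 between them, ranges that overlap. For the ubiquitin control transcript, the 3′ minus 5′ signal difference was 0.75 to 0.87 log2 units in fls1-3 and 0.89 to 1.26 in Col-0, without overlap, and the part of this in the results was not tested. RCA, a leaf mesophyll marker that encodes the activase of the carbon-fixing enzyme Rubisco, stood at 14.36 to 14.99 on all 6 arrays. RCA was the only 1 of 5 listed mesophyll markers that was measured. For other cell types, the measured markers were 1 for guard cells, 3 for the stomatal lineage, 1 for trichomes, 2 for roots and 1 for pollen and anther. None of them passed the test. PYK10, 1 of the 2 root markers, varied widely within groups, from 5.79 to 10.78 in Col-0 and from 0.35 to 11.36 in fls1-3. No listed marker of vascular tissue, epidermis, flowers, seeds or dividing cells was measured, so leaf composition was barely checked. In whole leaves, fewer cells of a type and less RNA per cell cannot be told apart.

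More genes rose than fell in fls1-3. Of 22746 probe sets, limma called 272 at an adjusted p of 0.05, which is 1.20%, with 184 higher (0.809%) and 88 lower (0.387%). Of these, 204 differed at least 2-fold, and 38 higher and 19 lower probe sets differed at least 4-fold. All 272 had their 3 fls1-3 arrays beyond their 3 Col-0 arrays, as did 12.6% of all probe sets tested. The median log2 difference was 1.40 among those higher, -1.25 among those lower and -0.00 among all probe sets. By genes, with the brightest probe set standing for each of 13355 genes, 80 rose (0.599%) and 41 fell (0.307%), together 0.906%. A symbol other than the locus name was at hand for 23 of these 121 genes, and for 1557 of the 13355. Genes were placed on lists by name, so a list holds only genes that could be matched by name, and genes of the same pathway carried under a locus name alone are not counted. Below, the measured genes of a list are these matched genes. Counts on a list are to be read beside the share over all genes. For calls this share was 0.906%. At an unadjusted p under 0.05 by limma, 4.89% of all genes were higher and 4.23% lower.

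Calls were concentrated among bright probe sets. When probe sets were split by mean level into 4 equal bins, the dimmest bin, with means up to 4.38, held 1 higher and 3 lower calls, and the brightest bin, from 9.11 up, held 100 and 42. The median spread within groups was 1.33 log2 units in the dimmest bin and 0.291 in the brightest. The count of 272 fell to 103 without Col-0 replicate 2, 132 without fls1-3 replicate 1 and 144 without fls1-3 replicate 2, and was 31 when OE1 and OE2 were left out of the fit, 156 with arrays centred on their medians and 1032 with array quality weights, where 55.2% of calls were higher against 67.6%. With any 1 of the 12 arrays left out, 36 of the 121 genes kept their call, and 12 kept it under all 22 alternatives tried, namely QQS, ORA47, WRKY53, ATMRK1, IRX15-L, AT1G52720, AT2G34930, AT3G55430, AT3G59350, AT5G05600, AT5G38710 and AT5G62360.

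**Figure D1:**
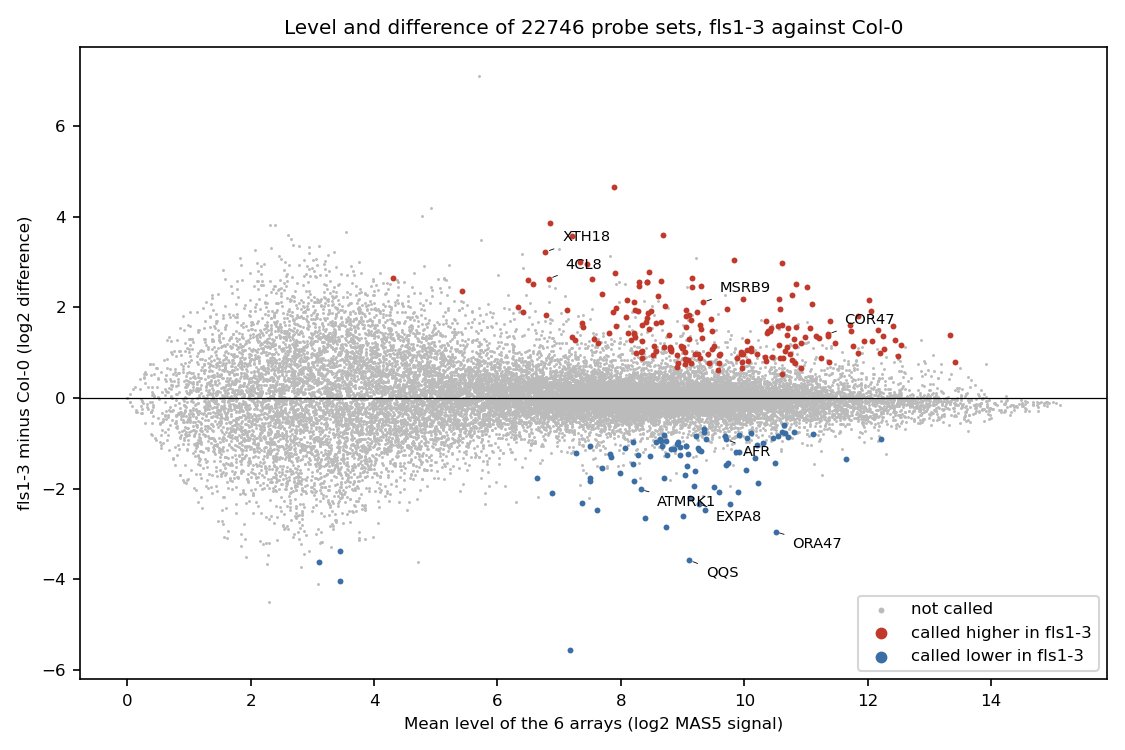
Each point is a probe set, with the mean log2 MAS5 signal of the 6 arrays on the x axis and the log2 difference, fls1-3 minus Col-0, on the y axis; red and blue points are the 184 higher and 88 lower calls. Grey points fan out at low signal, where few calls lie.

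None of the few genes matched to the flavonol list passed the test, and no enzyme that builds the flavonol backbone was among them. The list names 32 symbols for flavonol synthesis, its regulation and flavonol glycosylation. Of the 7 genes matched limma called 0, with 2 lower and 0 higher at an unadjusted p under 0.05 (a level that 4.23% of all genes passed as lower and 4.89% as higher), and their median log2 difference was 0.01. UGT78D2, which attaches glucose to flavonols and anthocyanidins, read 8.66, 9.21 and 9.27 in Col-0 and 8.55, 8.36 and 8.48 in fls1-3. All 3 mutant arrays lay below the wild type, yet the difference of -0.58 (95% interval -1.07 to -0.09) had an adjusted p of 0.358. HYH, a light-response transcription factor related to HY5, read 9.0, 8.36 and 8.58 against 8.03, 8.21 and 7.63, a difference of -0.69 (95% interval -1.16 to -0.22, adjusted p = 0.203). These were the only members of the list whose groups did not overlap, against 12.3% of all genes.

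Flavonol glycosylation otherwise showed no common direction. UGT78D1, the flavonol rhamnosyltransferase, held 9.17, 9.32 and 9.67 in Col-0 and 10.71, 9.45 and 8.24 in fls1-3, so that the mutant arrays spanned the whole wild-type range and the difference was 0.08 (95% interval -0.87 to 1.03). CHIL, a chalcone isomerase-like protein that raises flux into flavonoids, stood at 5.60, 7.95 and 7.54 against 7.88, 7.58 and 5.67, a difference of 0.01. UGT78D3, the flavonol arabinosyltransferase, and the glucosyltransferases UGT71C1 and UGT84A1 had group means of at most 2.47, near the floor, and differences of -0.28, 1.30 and 0.38.

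On the anthocyanin side, where the list names 37 symbols and 3 genes were matched, limma called 0 of the 3 and 0 had an unadjusted p under 0.05. DFR read 4.61, 6.86 and 8.24 in Col-0 and 8.39, 5.78 and 4.98 in fls1-3, a difference of -0.18 whose 95% interval ran from -3.16 to 2.80. UF3GT, a glycosyltransferase of anthocyanin decoration, differed by 1.15, and BAN, the anthocyanidin reductase of seed-coat tannin synthesis, by 0.73, and both overlapped between the groups. Intervals this wide mean that even a several-fold difference of DFR in either direction was not detectable with these arrays.

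Upstream, in the general phenylpropanoid pathway, 1 of 4 matched genes rose, from a list that names 38 symbols. 4CL8, named as a member of the 4-coumarate:CoA ligase family, whose founding enzymes activate cinnamic acids for flavonoids and lignin, read 4.97, 5.99 and 5.59 in Col-0 and 8.70, 8.20 and 7.54 in fls1-3. The lowest mutant array exceeded the highest wild-type array by more than the range within Col-0. It rose by 2.63 ± 0.34 log2 units (SE, n = 3 against 3; 6.17-fold; adjusted p = 0.00324), from a Col-0 level below the median of all values. HCT, which makes the shikimate esters on the way to lignin, differed by -0.45 (adjusted p = 0.462), CCR2, a cinnamoyl-CoA reductase, by 0.58, and AT5G66390, a class III peroxidase, by 1.35 from a level near the floor.

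**Figure D2:**
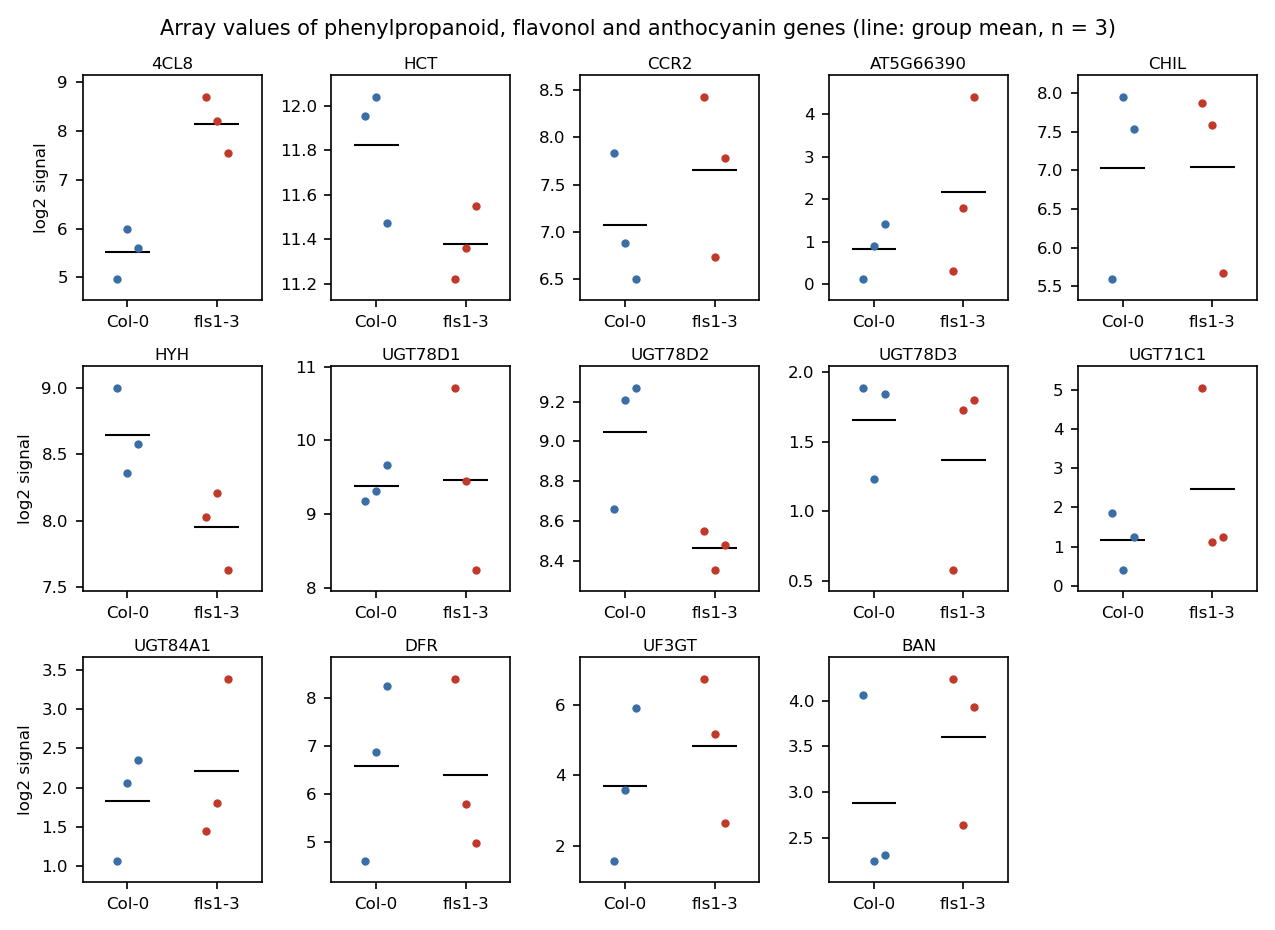
Log2 signal on each of the 3 Col-0 and 3 fls1-3 arrays for all 14 measured genes of the phenylpropanoid, flavonol and anthocyanin lists, with the line at the group mean and the y axis cut to each gene's own range. Only 4CL8 passed the test, and DFR and UF3GT varied more within each group than between the groups.

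DFR was one of many genes whose values within a group ran in the order of the array medians. The mitotic kinase gene AUR1 read 5.64, 7.57 and 8.16 on the Col-0 arrays in order of rising median, and 6.10, 6.81 and 8.75 on the fls1-3 arrays in the same order. AUR2, its close relative, ran from 1.32 to 7.33 in Col-0 and from 4.92 to 8.25 in fls1-3. HTR12, the centromeric histone H3, ran from 5.26 to 7.23 and from 4.27 to 7.82. All 3 genes act in dividing cells, and for each the groups overlapped. The spindle checkpoint genes BUB3.1 and BUBR1, the cell cycle regulator CKS and the histone H2B genes HTB1 and HTB2 followed the same order.

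The pattern was not limited to dividing-cell genes. EXPA4 and EXPB3, expansins that loosen cell walls, followed it, as did the ER body genes PYK10, a beta-glucosidase, and NAI2, which organises that compartment. PYK10 ranged from 5.79 to 10.78 in Col-0 and from 0.35 to 11.36 in fls1-3. Of 4356 genes that spanned at least 1 log2 unit within both groups, 632 followed the array medians in both, 212 ran against them in both, and 144 followed them in one group and opposed them in the other. The genes named here were picked after their values were seen, and the order is a description of these 6 arrays. Without the array of lowest median in each group, an alternative chosen after seeing the data, limma called 287 probe sets, 201 higher and 86 lower.

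Genes that build and remodel cell walls moved in both directions. XTH18, an enzyme that cuts and rejoins xyloglucan, read 5.24, 5.28 and 4.98 in Col-0 and 9.90, 7.76 and 7.51 in fls1-3. Every mutant array stood well above a tight wild-type group, though fls1-3 replicate 1 was far above the other 2. XTH18 rose by 3.22 ± 0.60 (SE; 9.34-fold; adjusted p = 0.0231), the only one of 10 measured members of its family to pass. A close relative, XTH19, had a difference of 1.61 (adjusted p = 0.757), with overlapping groups.

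Among 19 expansins, 1 rose and 1 fell, and the median difference was -0.01. EXPA8 read 9.91, 11.23 and 10.14 in Col-0 against 7.84, 9.01 and 7.42 in fls1-3 and fell by 2.34 ± 0.41 (5.05-fold; adjusted p = 0.0178). EXLA1, of the expansin-like branch, went the other way, from 6.98, 6.93 and 7.29 to 10.25, 8.48 and 9.89, a rise of 2.47 ± 0.48 (5.54-fold; adjusted p = 0.0278). Its relatives EXLA2 and EXLA3 had differences of 1.87 and 1.66 that did not pass. EXPB1, a beta-expansin, differed by -1.91 without overlap (adjusted p = 0.119).

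Among the wall genes matched by name, xylan synthesis gave the steadiest result. IRX15-L, needed for normal xylan chains in secondary walls, read 6.29, 6.78 and 6.55 in Col-0 and 8.90, 8.72 and 8.88 in fls1-3. The 3 mutant arrays lay close together and well above the wild type. IRX15-L rose by 2.29 ± 0.23 (4.90-fold; adjusted p = 0.000715), and its paralog IRX15 differed by 2.12 (adjusted p = 0.347) from a Col-0 level near the floor. GUT2, another gene of xylan chain synthesis, differed by -0.03. Across the broader list of 38 wall synthesis genes, 2 rose and 0 fell, the other riser being TBL37, of the family that acetylates wall polysaccharides. It went from 9.29, 8.81 and 9.01 to 9.97, 9.81 and 9.65, by 0.77 ± 0.15 (adjusted p = 0.0316). CSLD2, a cellulose synthase-like gene of tip growth, and TBL25 had differences of 0.92 and -0.60 and did not pass (adjusted p = 0.0678 and 0.0822). No call was made by limma among the 4 pectin genes matched by name, of which 1 was higher at an unadjusted p under 0.05. The same held for 15 GH9 endoglucanases, of which 1 was lower at that level. Pectin genes known by locus alone are not counted, so these 4 do not describe the whole group.

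These wall calls differ in how much they rest on single arrays. IRX15-L kept its call in every alternative. EXPA8, XTH18, EXLA1 and TBL37 lost theirs when OE1 and OE2 were left out of the fit (limma adjusted p 0.121 to 0.262). With the replicate number as a block, EXLA1 and TBL37 lost the call as well. EXPA8 lost it without Col-0 replicate 2 or fls1-3 replicate 1 or 3 (adjusted p 0.0555 to 0.0775), and XTH18 without Col-0 replicate 2 or 3 or fls1-3 replicate 1 (0.0624 to 0.0866). EXLA1 lost it without any 1 of 5 arrays, the 3 of Col-0 and fls1-3 replicates 1 and 3 (0.0534 to 0.116), and TBL37 without any 1 of 8 arrays, Col-0 replicates 2 and 3, fls1-3 replicates 1 and 2, OE1 replicate 3 and the 3 of OE2 (0.0514 to 0.143), and also with arrays centred on their medians.

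Sugar and starch genes were marked by 1 large fall. QQS, an orphan gene known to affect how leaves partition carbon between starch and protein, read 10.85, 11.04 and 10.79 in Col-0 and 6.52, 7.97 and 7.46 in fls1-3. The wild-type arrays lay close together, the mutant arrays were more scattered, and no array came near the other group. It fell by 3.57 ± 0.34 (11.9-fold; adjusted p = 0.000666). The enzymes of starch and sucrose metabolism on the same list of 6 did not pass. Differences were -0.29 for APL3 and 0.65 for APL4, large subunits of the enzyme that commits glucose to starch, -0.16 for the branching enzyme SBE2.2, 0.11 for DPE1, which rearranges maltotriose, and -0.70 for the sucrose phosphate synthase ATSPS4F.

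Of 16 SWEET genes, which encode sugar uniporters, 1 rose and 1 fell. SWEET2 and SWEET16 are both transporters of the vacuolar membrane. SWEET2 read 9.12, 9.44 and 9.58 in Col-0 against 7.74, 8.36 and 8.25 in fls1-3 and fell by 1.26 ± 0.24 (2.39-fold; adjusted p = 0.0246). SWEET16 moved the opposite way, from 8.07, 8.38 and 8.25 to 9.43, 9.36 and 9.32, by 1.14 ± 0.23 (2.20-fold; adjusted p = 0.0385). Neither group of arrays overlapped the other for either gene. SWEET2 lost its call without Col-0 replicate 2 or 3 or fls1-3 replicate 1 or 3 (adjusted p 0.0505 to 0.106). Both SWEET calls were also lost with arrays centred on their medians. SWEET16 was the least secure call with a symbol, lost without any 1 of 9 arrays, the 6 compared, OE1 replicate 3 and OE2 replicates 2 and 3 (0.0547 to 0.125).

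The list of genes known to respond to carbon shortage or darkness was trimmed after values were seen. AT1G15010, AT2G15960, AT3G15450 and AT3G15630, all of which rose, were taken off it because they had been picked from earlier results of these data, so the absence of calls among the 13 genes kept says nothing about the group. Of these 13, 10 differences were positive. At an unadjusted p under 0.05 by limma, 4 were higher and 0 lower, where 4.89% of all genes were higher and 4.23% lower. These counts come from the same trimmed list and share its limit. AKINBETA1, a regulatory subunit of the energy-sensing kinase SnRK1, read 10.10, 10.25 and 9.98 in Col-0 and 10.55, 10.88 and 10.79 in fls1-3 (0.63 ± 0.14, adjusted p = 0.0578). MCCA, a subunit of leucine breakdown, differed by 0.68 and MGL, the methionine gamma-lyase, by 1.16. Among 11 autophagy genes 0 were called, 0 had an unadjusted p under 0.05, and differences ran from -0.41 to 0.39.

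**Figure D3:**
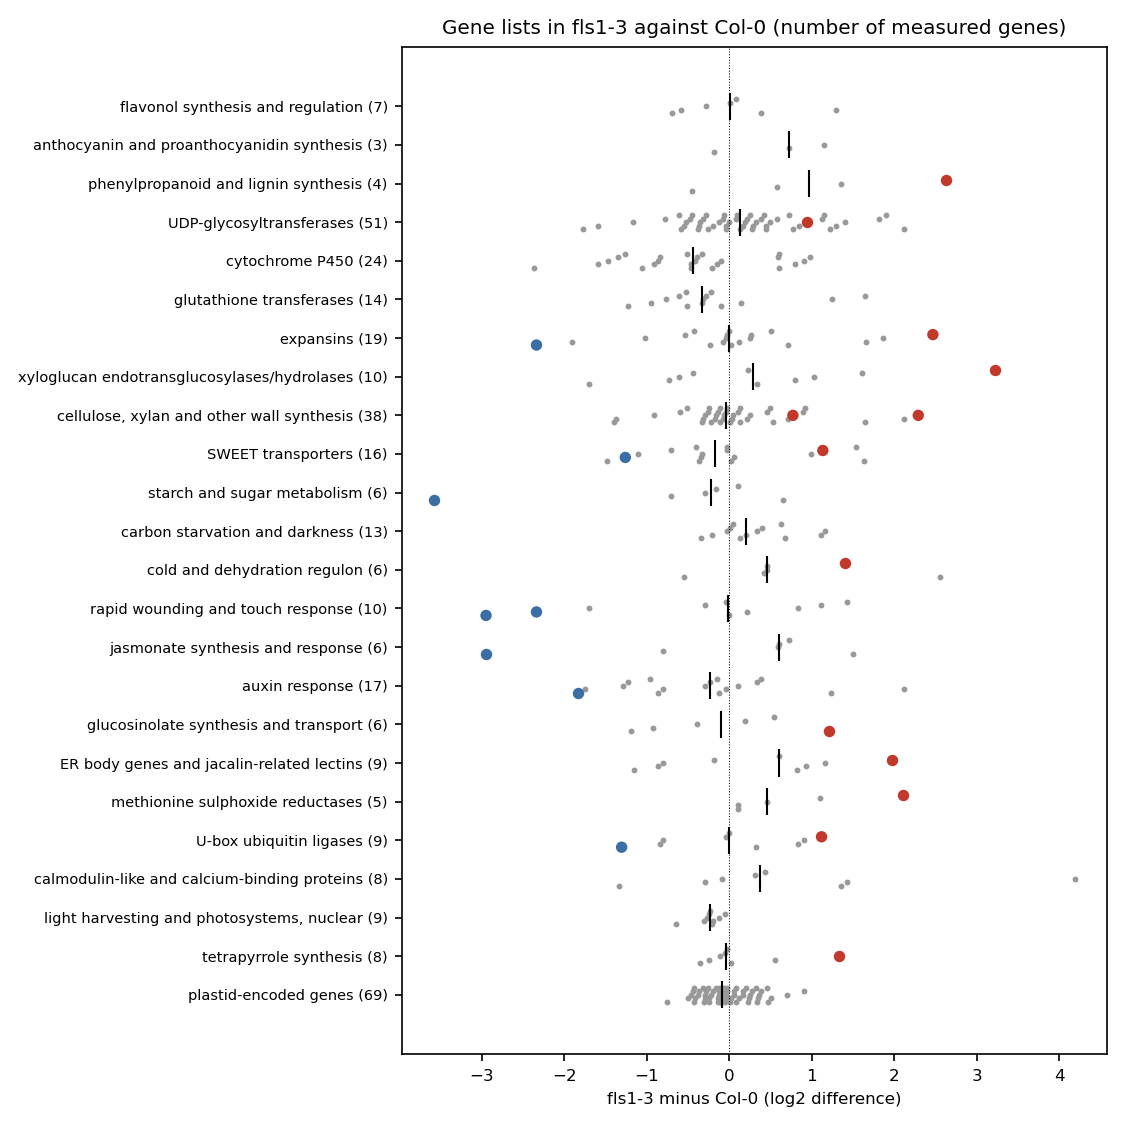
Log2 differences, fls1-3 minus Col-0, of the measured members of 24 gene lists, with the number of genes in brackets, a black bar at the list's median, grey points for genes that did not pass and red or blue points for those called higher or lower. Called genes are few in each list beside members spread around 0, the list for carbon starvation and darkness is shown without the 4 called loci taken off it, and the nuclear photosystem genes all lie slightly below 0 without a call.

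Fast-acting stress regulators were among the clearest falls. ORA47, an AP2/ERF transcription factor that is switched on within minutes of wounding and activates jasmonate synthesis, read 12.37, 12.36 and 11.21 in Col-0 and 8.95, 8.95 and 9.19 in fls1-3. WRKY53, a transcription factor of senescence and defence, read 11.47, 10.83 and 10.53 against 8.40, 8.43 and 8.99. For both genes the mutant arrays were low and the wild-type arrays high with no overlap, and Col-0 held the wider spread. The fall of ORA47 was 2.95 ± 0.33 log2 units (7.72-fold; adjusted p = 0.00131) and that of WRKY53 2.34 ± 0.34 (5.05-fold; adjusted p = 0.00605).

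On the list of genes known to respond fast to wounding and touch, the others did not pass. Of its 10 measured genes 2 fell and 0 rose, with a median of -0.02. STZ, a zinc-finger repressor induced by the same stimuli, stood at 12.84, 12.15 and 11.36 against 10.62, 9.75 and 10.86, a difference of -1.70 with an adjusted p of 0.103. CML38, a calmodulin-like calcium sensor of wounding, differed by 1.43 the other way (adjusted p = 0.201). The jasmonate list names 62 symbols, and among the 6 genes matched by name ORA47 alone was called. MYC3 and MYC4, transcription factors at the core of the jasmonate response, had differences of 0.61 and -0.81. None of the other 6 WRKY genes measured was called, nor was SAG101 or PDF1.2, markers of senescence and of jasmonate-ethylene defence, at 0.70 and 0.49.

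The calmodulin-like genes that could be matched by name varied widely without a call, and members of the family outside the list are not counted. Of 8 measured, limma called 0, with 3 higher and 1 lower at an unadjusted p under 0.05. Over all genes, 4.89% were higher and 4.23% lower at that level. AT1G76640 read 4.36, 1.56 and 2.54 in Col-0 and 8.21, 6.41 and 6.42 in fls1-3, and CML41 read 8.69, 7.68 and 7.83 against 9.08, 8.93 and 10.26. Both were higher on every mutant array, with adjusted p-values of 0.128 and 0.203.

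Cold and dehydration genes gave 1 rise of 6. COR47, a dehydrin that protects membranes and proteins in cold and drought, read 10.45, 10.83 and 10.66 in Col-0 and 12.50, 11.58 and 12.09 in fls1-3, and rose by 1.41 ± 0.21 (2.66-fold; adjusted p = 0.00701) in a call kept with any array left out. LTI30, another dehydrin, had a larger difference of 2.55, but its Col-0 replicate 3 at 7.75 matched its fls1-3 replicate 3 at 7.74 and it did not pass (adjusted p = 0.123). The chloroplast proteins COR15A and COR15B differed by 0.43 and 0.46 (adjusted p = 0.921 and 0.720). Of the 7 genes matched by name on the separate list of late-embryogenesis proteins, limma called 0 and none had an unadjusted p under 0.05. Family members outside the list are not counted.

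Methionine sulphoxide reductases, which repair oxidised methionine in proteins, had positive differences in all 5 measured members, with 1 call. MSRB9 read 8.80, 7.81 and 8.21 in Col-0 against 11.13, 9.78 and 10.24 in fls1-3 and rose by 2.11 ± 0.40 (4.32-fold; adjusted p = 0.0249). MSRB6 was higher on every mutant array, at 11.25, 12.12 and 11.63 against 10.13, 10.92 and 10.63, but did not pass (1.11, adjusted p = 0.153). MSRB5, MSRB3 and MSRA5 differed by 0.46, 0.11 and 0.11. The MSRB9 call was lost without Col-0 replicate 2 or 3 or fls1-3 replicate 1 or 3 (adjusted p 0.0566 to 0.121). Probe sets of closely related family members can share signal. Glutathione transferases leaned the other way, with 11 of 14 differences negative and a median of -0.32, and limma called 0 of them, 1 being lower at an unadjusted p under 0.05.

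Among genes of glucosinolates, defence compounds of the mustard family, 1 of 6 measured rose. GTR1, a plasma-membrane importer that distributes glucosinolates between tissues, read 11.21, 10.95 and 10.43 in Col-0 and 12.26, 12.21 and 11.73 in fls1-3. It rose by 1.21 ± 0.23 (2.31-fold; adjusted p = 0.0252), and its partner GTR2 differed by 0.54 (adjusted p = 0.594). No other gene of the list was called. BCAT4, which starts the methionine chain elongation, differed by -0.39, and AOP1, a side-chain oxygenase homolog, by -0.93 (adjusted p = 0.299). GTR1 lost its call without Col-0 replicate 2 or 3 or fls1-3 replicate 1 or 2 (adjusted p 0.0688 to 0.109) and with arrays centred on their medians.

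ER bodies are organelles that store beta-glucosidases able to act on glucosinolates. NAI1, the transcription factor that controls their formation, read 6.78, 7.33 and 6.67 in Col-0 and 9.17, 9.19 and 8.36 in fls1-3. It rose by 1.98 ± 0.29 (3.95-fold; adjusted p = 0.00589), and the call held with any array left out. Genes known to act downstream of it did not pass, as NAI2 differed by 0.61 (adjusted p = 0.919) and PYK10 by -1.15 (adjusted p = 0.945), with the wide spread described above. Of the 9 ER body and jacalin lectin genes measured, NAI1 alone was called. BGLU16, one of 22 beta-glucosidases of which limma called 0 and 1 was higher at an unadjusted p under 0.05, stood at 0.70 ± 0.16 (adjusted p = 0.0653).

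Protein turnover genes also split. PUB43, a U-box ubiquitin ligase, read 8.50, 8.26 and 8.60 in Col-0 and 9.62, 9.45 and 9.65 in fls1-3 and rose by 1.12 ± 0.16 (2.17-fold; adjusted p = 0.00562). PUB25, a ligase of the same class that acts in cold and immune signalling, went from 8.33, 9.0 and 8.16 to 7.02, 7.15 and 7.41, a fall of 1.30 ± 0.24 (2.47-fold; adjusted p = 0.0241). Its close homolog PUB26, known to act with it, was lower on every mutant array as well, at 7.79, 8.08 and 8.26 against 8.79, 9.19 and 8.66, and narrowly missed the threshold (-0.84 ± 0.19, adjusted p = 0.0560). In all, 1 of 9 U-box genes rose and 1 fell. PUB25 lost its call without Col-0 replicate 2 or fls1-3 replicate 1 or 2 (adjusted p 0.0889 to 0.100) and with arrays centred on their medians. Among 13 ubiquitin-conjugating enzymes and 12 ubiquitin-specific proteases limma called 0, with 1 lower and 2 higher at an unadjusted p under 0.05.

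In signalling, ATMRK1, named as a protein kinase related to the MLK and Raf families, fell. It read 9.54, 9.24 and 9.21 in Col-0 and 7.61, 6.95 and 7.37 in fls1-3, a change of -2.02 ± 0.18 (4.05-fold; adjusted p = 0.000528). IQD22, of a family of calmodulin-binding scaffold proteins, went from 7.17, 7.79 and 7.23 to 8.93, 8.59 and 9.0 and rose by 1.44 ± 0.22 (2.71-fold; adjusted p = 0.00724). It was the single call of 15 IQD genes, and IQD24 differed by -0.78 without overlap (adjusted p = 0.0985).

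Large families of metabolic enzymes held few calls. Of 51 UDP-glycosyltransferases 1 rose and 0 fell, which is 1.96%, and a single call does not set the family apart. UGT85A2 went from 8.06, 8.21 and 7.87 to 9.27, 8.98 and 8.73, by 0.95 ± 0.17 (adjusted p = 0.0216), a call lost without Col-0 replicate 2 or 3 or fls1-3 replicate 1 or 2 (adjusted p 0.0505 to 0.0840). UGT74D1, which glucosylates auxin and its oxidised form, differed by -0.77 (adjusted p = 0.0949). Of 24 cytochrome P450 genes limma called 0, with 1 higher and 4 lower at an unadjusted p under 0.05. Over all genes, 4.89% were higher and 4.23% lower at that level. Of the 24 differences 18 were negative, with a median of -0.44. CYP71B26 and CYP71B35 were lower on every mutant array, by -0.84 and -1.06 (adjusted p = 0.0867 and 0.110).

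Apart from jasmonate genes, the hormone genes matched by name gave 1 call. IAGLU, a glucosyltransferase that inactivates the auxin indole-3-acetic acid, read 9.48, 9.24 and 8.69 in Col-0 against 6.48, 7.87 and 7.57 in fls1-3 and fell by 1.83 ± 0.37 (3.55-fold; adjusted p = 0.0366). The call was lost without any 1 of 8 arrays, Col-0 replicates 1 and 2, fls1-3 replicates 1 and 3, OE1 replicate 3 and the 3 of OE2 (adjusted p 0.0599 to 0.149), and with arrays centred on their medians. Of the other 16 auxin genes none passed. GH3.3, which conjugates auxin to amino acids, and IAA18, a repressor of auxin signalling, were higher on every mutant array by 2.12 and 1.24 (adjusted p = 0.309 and 0.141). GID1B, a gibberellin receptor, differed by 1.20 without overlap (adjusted p = 0.0864), while its relatives GID1A and GID1C differed by -0.37 and -0.09. EIN3, the transcription factor of ethylene signalling, differed by 0.47 (adjusted p = 0.263).

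Photosynthesis genes were measured with high signal and gave no call. All 9 nuclear genes of light harvesting and the photosystems had negative differences, from -0.65 to -0.05, with overlapping groups, and limma called 0 with 0 at an unadjusted p under 0.05. The 4 genes of the Calvin cycle and photorespiration lay between -0.48 and -0.20. Of 69 plastid-encoded genes limma called 0, with 1 higher and 1 lower at an unadjusted p under 0.05 and a median of -0.09, and of 15 mitochondrial genes it called 0 with 1 higher. The plastid gene nearest the threshold was petL, for a subunit of the cytochrome b6f complex, at 0.70 (adjusted p = 0.199). Of 3 circadian clock genes limma called 0 and 0 had an unadjusted p under 0.05. FIO1, which affects the length of the clock period, had the smallest p at a difference of 0.44 ± 0.46 (adjusted p = 0.858), and GI, a clock component, differed by 0.02 ± 0.16.

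A pair of calls lay near the light and pigment pathways. AFR, an F-box protein that promotes phytochrome A signalling in far-red light, read 10.15, 10.28 and 10.06 in Col-0 and 9.21, 9.26 and 9.29 in fls1-3. Both groups were tight and far apart, and AFR fell by 0.91 ± 0.13 (1.88-fold; adjusted p = 0.00648). HEMA2, which encodes the less abundant form of glutamyl-tRNA reductase, the entry enzyme of chlorophyll and haem synthesis, went from 7.86, 7.60 and 7.23 to 8.76, 8.72 and 9.22, a rise of 1.34 ± 0.24 (2.53-fold; adjusted p = 0.0190). The other 7 tetrapyrrole genes did not pass, with the protochlorophyllide reductase PORB at 0.56 and the methyltransferase CHLM at -0.35. HEMA2 lost its call without Col-0 replicate 2 or 3 or fls1-3 replicate 3 (adjusted p 0.0546 to 0.0706) and with arrays centred on their medians.

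**Figure D4:**
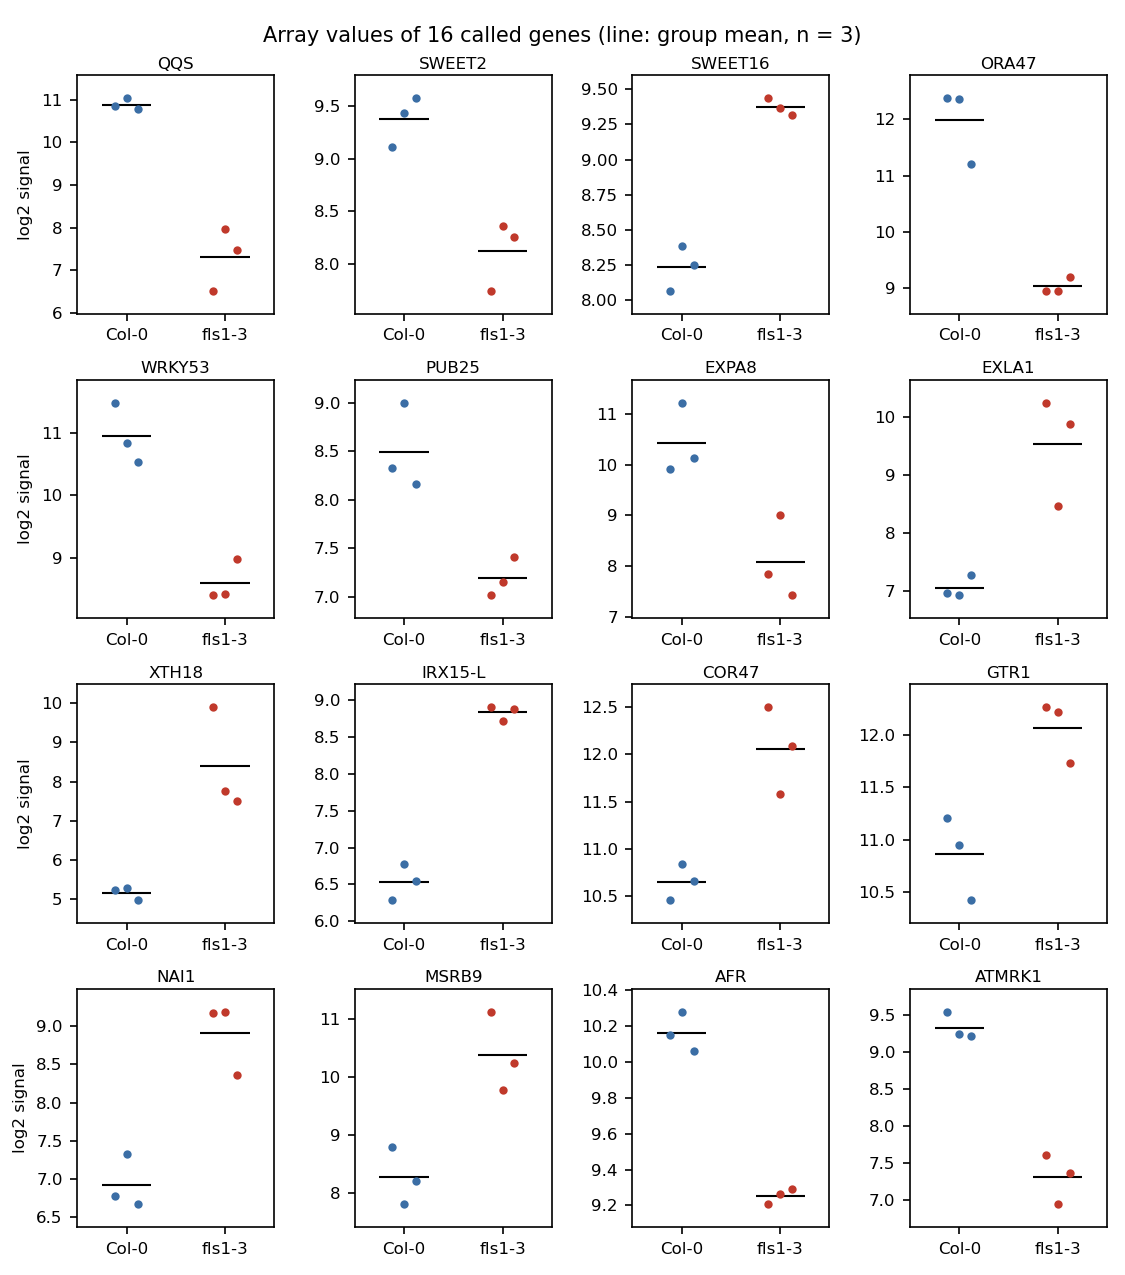
Log2 signal on each of the 3 Col-0 and 3 fls1-3 arrays for 16 called genes, with the line at the group mean and the y axis cut to each gene's own range. In every panel the 2 groups are separate, with 8 genes lower and 8 higher in fls1-3.

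Most called genes, 98 of 121, were known only by locus, 66 higher and 32 lower, and no role is given for them here. AT1G52720 had the smallest p of all genes that rose. It read 9.26, 9.45 and 9.72 in Col-0 and 11.62, 11.63 and 11.72 in fls1-3, a change of 2.18 ± 0.16 (4.54-fold; adjusted p = 6.3e-05). AT5G05600 reached the highest level of the strongest risers, going from 10.23, 9.17 and 9.38 to 12.01, 12.22 and 12.06, by 2.50 ± 0.27. AT5G62360 rose by 3.58, AT2G34930 by 2.55, AT3G59350 by 2.13 and AT3G55430 by 1.55, each without overlap.

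Among the falls known by locus, AT1G64500 read 10.72, 10.52 and 10.11 in Col-0 and 8.86, 9.05 and 9.13 in fls1-3, a change of -1.44 ± 0.17 (adjusted p = 0.00211). AT3G56080, AT5G15950 and AT4G24700 fell by 1.65, 1.51 and 1.27, and AT3G52360 fell by 1.15. These 5 kept their call with any array left out. AT4G29200 had the largest difference, -5.56, from a Col-0 mean of 9.96 to an fls1-3 mean of 4.39, in a range where replicate signals scatter.

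Called genes were spread over the genome. The share called was 0.909%, 1.06%, 0.735%, 0.930% and 0.973% on chromosomes 1 to 5 and 0 of 69 genes on the plastid genome. NAI1 and AT2G22880 were the only pair of called genes with no other measured gene between them, and both rose. Around FLS1, on chromosome 5, none of the 15 nearest measured genes on each side was called, and the smallest p belonged to AT5G08570 at -0.63 (adjusted p = 0.0608).

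As a second reference, fls1-3 was set against the mean of OE1 and OE2 in the same fit. No test against OE1 or OE2 alone was run, so a call does not show a difference from each line. This contrast called 34 probe sets (0.149%), 28 higher and 6 lower, and 30 of them were also called against Col-0, all in the same direction. Both contrasts use the same 3 fls1-3 arrays, so this agreement is not independent. Of the 30, 13 name 1 gene.

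ATMRK1 gave the clearest case. It averaged 9.33 ± 0.18 (SD, n = 3) in Col-0, 9.34 ± 0.15 in OE1, 9.10 ± 0.07 in OE2 and 7.31 ± 0.34 in fls1-3, and stood 1.91 log2 units lower than the overexpression lines, at -1.91 ± 0.16 (SE; adjusted p = 0.000486). It was the only one of the 13 to keep this call with any array left out (adjusted p up to 0.00442). GTR1 was 1.64 ± 0.20 higher (adjusted p = 0.0107), with means of 10.86 in Col-0, 10.14 in OE1, 10.70 in OE2 and 12.07 in fls1-3, and lost the call for 3 of the 12 arrays (adjusted p up to 0.0725). COR47 was 1.25 ± 0.18 higher (adjusted p = 0.0258) and PUB43 was 0.88 ± 0.14 higher (adjusted p = 0.0351), with 7 and 8 of the 12 arrays each ending the call when left out (adjusted p up to 0.100 and 0.144).

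Among genes known by locus, AT1G15010 and AT5G38710 were 3.03 and 2.04 higher in fls1-3 than the mean of OE1 and OE2 (limma adjusted p = 0.0351 and 0.0258). They lost this call for 8 and 7 of the 12 arrays. Of the 121 genes called against Col-0, only 13 were also called in this contrast. The other changes of fls1-3, the great majority and some of them large, were not set apart from the overexpression lines by this test. QQS averaged 8.18 in OE1 and 7.01 in OE2 against 7.32 in fls1-3, a difference of -0.28 from their mean (adjusted p = 0.717). ORA47 averaged 10.16 in OE1 and 6.96 in OE2, on either side of the 9.03 of fls1-3 (adjusted p = 0.537). 4CL8 had means of 7.11 and 7.95 against 8.15 (adjusted p = 0.449), and AFR had means of 9.49 and 8.88 against 9.25 (adjusted p = 0.829). XTH18 and EXLA1 were 2.57 and 2.37 higher in fls1-3 than in the overexpression lines, with adjusted p-values of 0.0936 and 0.0542. A p above the threshold does not show that the lines are alike. The count of 34 was 4 without fls1-3 replicate 1 or OE2 replicate 3, 6 without fls1-3 replicate 3, 7 without OE1 replicate 3, 8 without Col-0 replicate 2 or OE2 replicate 2, 11 without fls1-3 replicate 2, 15 without OE1 replicate 1 and 125 without Col-0 replicate 1.

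**Figure D5:**
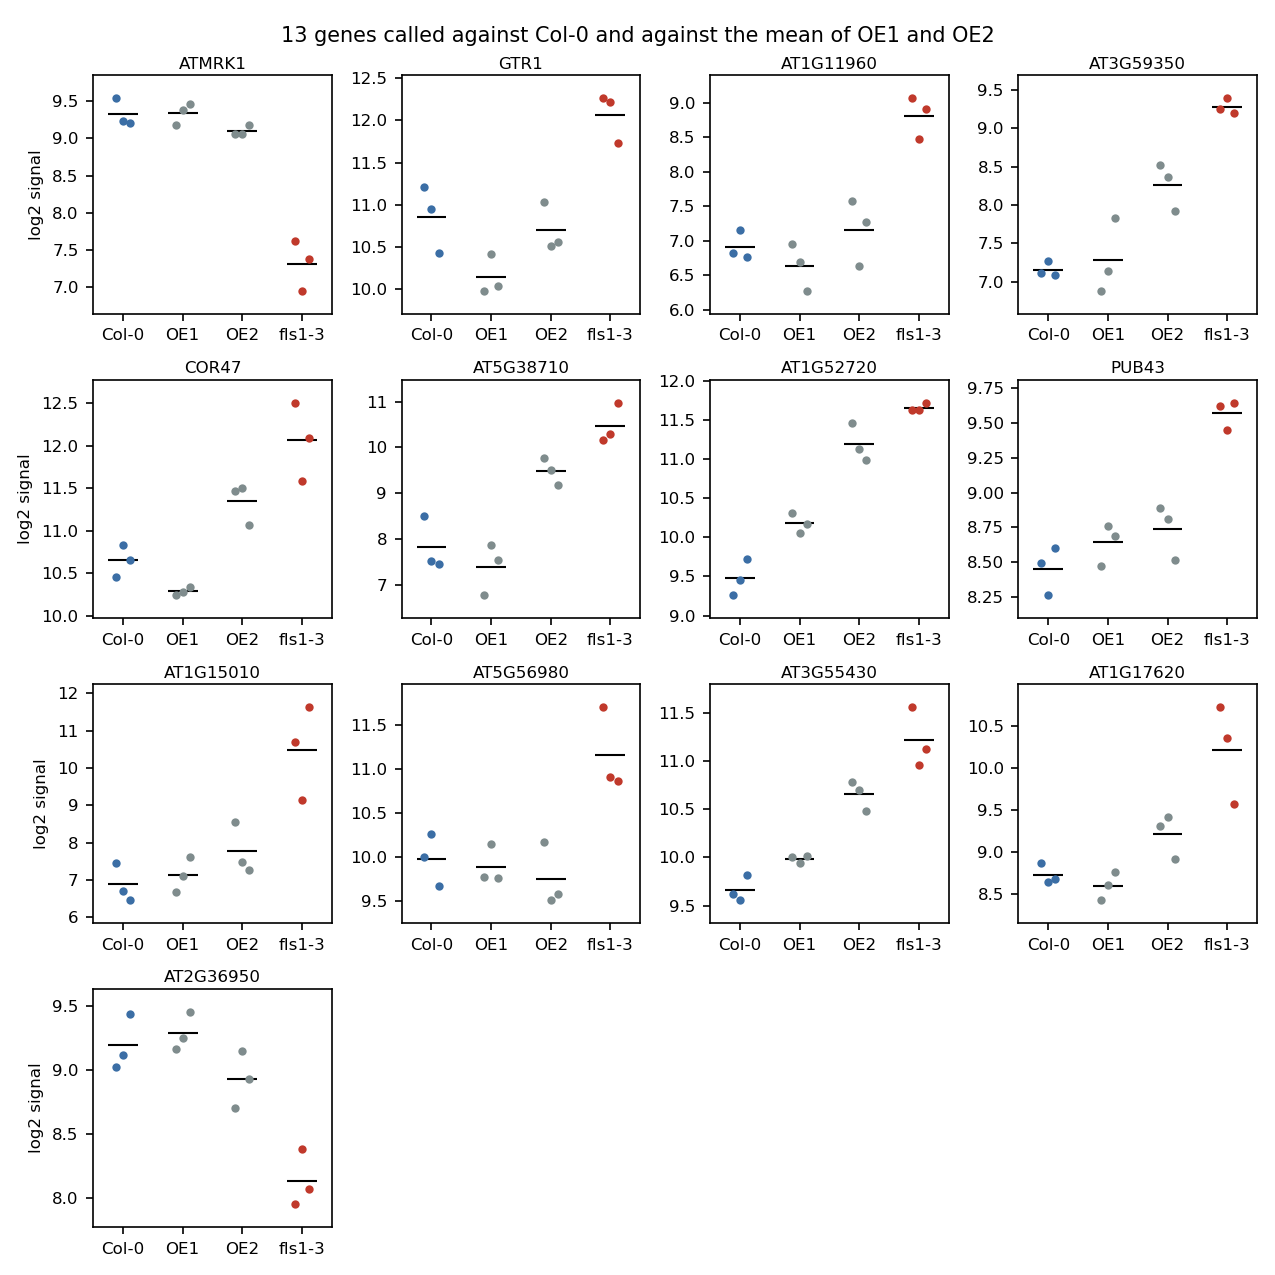
Log2 signal on each of the 3 arrays of Col-0, OE1, OE2 and fls1-3 for the 13 genes called both against Col-0 and against the mean of OE1 and OE2, with the line at the group mean and the y axis cut to each gene's own range. ATMRK1 and AT2G36950 are lowest in fls1-3 and the other 11 genes are highest there, while OE2 lies between Col-0 and fls1-3 for several of them.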

How the data were processed

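Total RNA from rosette leaves was labelled from 6 µg per sample and hybridised to Affymetrix Arabidopsis arrays, 1 channel per array, per the labels' protocols. The submitters' processing notes name MAS5, with its version not given in the sources used here. Values as deposited are log2 signals with a floor of 0, and the 2% trimmed mean of each array on the linear scale is close to 500.05, which shows that the authors scaled each array, a step that leaves array medians free to differ. Detection calls were not analysed here. Deposited values were used without further normalization.

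The model, in limma 3.58.1 under R 4.3.3, took all 12 arrays, with 1 coefficient for each of the 4 groups, 8 residual degrees of freedom and an intensity trend. Contrasts were fls1-3 against Col-0 and against the mean of OE1 and OE2, with Benjamini-Hochberg adjustment over 22746 probe sets after 64 control probe sets were left out, and a threshold of 0.05. The fit was tested on simulated data. The number of arrays limits the precision.

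Names come from the platform annotation of 2016 through a RefSeq gene table (assembly TAIR10.1) that served for naming and gene order alone. Of the probe sets, 13513 name 1 gene, 503 several and 8730 none, and 13436 of the first kind matched the gene table. The probe set with the highest mean stands for a gene. Of 82 gene lists with a measured member, covering 732 genes, 25 held a called gene. Members and lists were chosen with earlier results of these data known, and 18 lists were added after the files were seen. From the list for carbon shortage and darkness 4 called loci were removed, since they had been picked from earlier results and carry no name. Named are called list members, the smallest p of lists with none, every gene of the phenolic lists, the 15 called genes each way with the largest moderated t, and genes called in both contrasts, with some left out for length. Alternatives are given at the end.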

Additional observations from a re-analysis of the deposited data

Results flagged for a closer look

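In 13 genes the level in fls1-3 differed by the limma test both from Col-0 and from the mean of OE1 and OE2. The differences from the overexpression lines were -1.91 for ATMRK1, -0.97 for AT2G36950, 0.88 for PUB43, 0.89 for AT3G55430, 0.97 for AT1G52720, 1.25 for COR47, 1.31 for AT1G17620, 1.33 for AT5G56980, 1.51 for AT3G59350, 1.64 for GTR1, 1.91 for AT1G11960, 2.04 for AT5G38710 and 3.03 for AT1G15010, in log2 units. The group means of AT1G15010 were 6.88 in Col-0, 7.14 in OE1, 7.76 in OE2 and 10.48 in fls1-3. AT5G56980 averaged 9.98, 9.89 and 9.76 in the first 3 groups and 11.16 in fls1-3, and its call against Col-0 was itself lost with any 1 of 11 arrays left out. AT5G38710 averaged 9.49 in OE2, between the 7.83 of Col-0 and the 10.47 of fls1-3. ATMRK1 kept the call with any array left out. GTR1 lost it for 3 of the 12 arrays, AT1G11960 for 4, AT3G59350 for 6, COR47, AT5G38710 and AT1G52720 for 7, PUB43 and AT1G15010 for 8, and the other 4 for 9. The 3′ to 5′ differences of the control transcripts in OE1, at 1.36 to 1.60 for GAPDH against 0.59 to 1.03 in fls1-3, enter these comparisons, and their part in them was not tested.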

How the results depend on the processing

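The count of probe sets called for fls1-3 against Col-0, 272 as reported, was 156 with arrays centred on their medians, 31 with only the groups compared, 103 with no intensity trend, 1032 with array quality weights (570 higher and 462 lower, so 55.2% higher) and 844 when array medians entered as a covariate (520 and 324). With 1 array left out it ran from 103 (78.6% higher), without Col-0 replicate 2, to 369. It was 235 after quantile normalization, 326 for probe sets above the 40th percentile and 274 without probe sets that can cross-hybridise. The count against the mean of OE1 and OE2, 34 as reported, was 87 with only the groups compared, 5 with no intensity trend, 2600 with array quality weights (1063 higher and 1537 lower), 94 when array medians entered the model, 6 without the array of lowest median in each of Col-0 and fls1-3, an alternative chosen after seeing the data, and 4 to 125 with 1 array left out. The cause of these moves was not tested, except that fewer arrays in a fit leave fewer degrees of freedom. No called gene changed direction in any alternative run. Of the 121 called genes, 65 kept the call with arrays centred on their medians, 13 with only the groups compared and 79 without those lowest-median arrays, where SWEET16, IAGLU and EXLA1 lost it. With the replicate number as a replicate block the counts were 219 and 39, and 94 of the 121 genes kept the call. Arrays of the same number did not deviate together, at -0.27, 0.05 and -0.25, so the numbers were not taken as pairs. A block on slide or scan date was not run. Dim probe sets, whose spread is widest, limit what could be called.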

Other observations

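Among genes matched by name, families outside the groups described above held no call by limma in fls1-3 against Col-0. Their values may guide a closer look. At an unadjusted p under 0.05, 4.89% of all genes were higher and 4.23% lower. Of 26 genes of secretion and vacuolar sorting, 4 were higher and 0 lower at that level. In this group 20 differences were positive, with a median of 0.16 against -0.01 for all genes. SEC15B, a subunit of the exocyst that tethers secretory vesicles, was higher on every mutant array (0.54, adjusted p = 0.118), and KEU, a partner of the vesicle fusion machinery of dividing cells, differed by 0.60 (adjusted p = 0.305). Of 15 tetraspanins, membrane organisers, 12 differences were positive, with 1 higher at an unadjusted p under 0.05. Of 22 bZIP transcription factors, 2 were higher and 0 lower at that level, among them BZIP28, a sensor of protein folding stress in the endoplasmic reticulum, at 0.40 (adjusted p = 0.478).

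Neither the 42 AGAMOUS-like MADS-box genes nor the 29 serine carboxypeptidase-like genes held a member with an unadjusted p under 0.05, with medians of -0.08 and 0.04. Of 9 tubulin and actin genes 1 was lower at that level, the pollen-type actin ACT12 at -3.19 (adjusted p = 0.222). Among 9 cell cycle and histone genes, limma called 0 and none had an unadjusted p under 0.05.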
